A study of Mus musculus with 16 samples.

Results

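Tnf encodes tumour necrosis factor, the secreted cytokine with which macrophages answer bacterial products within the first hour. The gene was taken from the deposited count table as the row named Tnf, which is 1 row of 13832 genes. It is described here in ribosome footprints and in input RNA of RAW264.7 cells, a mouse macrophage-like cell line, exposed to lipopolysaccharide (LPS, a component of the outer membrane of Gram-negative bacteria) at 100 ng/ml. The groups were untreated cells (0 min) and cells treated for 15, 30, 45, 60, 75 and 90 min and for 16 h, each with 1 input and 1 footprint library, so 16 libraries formed 16 groups of 1. All groups were of the same line, and cells were washed and lysed with cycloheximide, which holds ribosomes in place, per the labels' protocols. Untreated cells were sampled only at 0 min, so the part of LPS at later times cannot be told apart from that of handling and culture time. No group had a replicate, so intervals on single libraries below are 95% intervals for counting error only.

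The product of Tnf is made as a transmembrane precursor that the protease ADAM17 cuts loose from the cell surface, and the freed trimer binds TNFR1 and TNFR2. Transcription is started by NF-κB and other factors downstream of the LPS receptor TLR4. The 3′ untranslated region (UTR) of the mRNA holds an AU-rich element, through which proteins such as tristetraprolin (the product of Zfp36) shorten the life of the mRNA and hold back its translation. Ribosome profiling counts the mRNA stretches covered by ribosomes, and the ratio of footprints to input RNA, called ribosome density here, is a measure of ribosomes per mRNA.

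Tnf lies at chr17:35199381-35202007 on the minus strand of GRCm38 (mm10), the build named in the submitters' processing notes. In the GENCODE M21 annotation it has 4 exons, a transcript of 1639 bases, a coding length of 705 bases (235 codons without the stop) and a 3′ UTR of 764 bases. No other annotated gene overlaps it. The AU-rich element is shown because it is the sequence through which the mRNA's decay and translation are known to be regulated; capitals mark its ATTTA pentamers (AUUUA in the mRNA), written 5′ to 3′ in the sense of the mRNA from chr17:35199679-35199708.

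Tnf AU-rich element: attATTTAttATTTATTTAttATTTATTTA

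The 3′ UTR held 8 ATTTA in all, of which 5 lay in this 30-base window, starting 437 bases after the stop codon. Windows of 30 bases with at least 5 ATTTA, a minimum set at the Tnf value, were found in 26 of 12726 genes with an annotated 3′ UTR (0.204%), against 68.6% with at least 1 ATTTA anywhere in the UTR. The bases just upstream of the transcription start are shown because the RNA level is the first of the quantities described. They run from chr17:35202008-35202257, minus strand, in RefSeq's GRCm38.p6 table, and capitals mark the motifs searched on both strands, TATAAA and an NF-κB-like pattern of GGG and CC with any 5 bases between.

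Tnf promoter: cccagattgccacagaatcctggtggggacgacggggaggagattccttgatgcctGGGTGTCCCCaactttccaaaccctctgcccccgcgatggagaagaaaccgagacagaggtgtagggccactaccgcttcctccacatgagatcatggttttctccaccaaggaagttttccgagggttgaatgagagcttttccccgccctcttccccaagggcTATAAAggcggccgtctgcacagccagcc

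TATAAA lay at -29 to -24 from the start and was present in 12.4% of 32851 promoter windows. The NF-κB-like pattern lay at -194 to -185, the same bases on both strands, and was present in 45.8% of them. A match is a description of the letters and no evidence of binding.

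Each library summed to 6702930 to 6702932 counts, so counts of Tnf can be set side by side, although equal totals say nothing of the original sequencing depth. Of 8 macrophage markers (among them Csf1r, Cd68 and Adgre1), all 8 were in the table. Their summed level in input was 2963 to 4704 CPM (counts scaled to a common total per library). The markers differed in level and course. Itgam had 17 to 71 input counts, Csf1r had 4008 untreated and 1740 at 16 h, and Cd14 had 3282 and 15967. The osteoclast, epithelial, T cell, B cell and neutrophil marker lists each reached at most 16.6 summed CPM in any library, and none of the 4 fibroblast markers was in the table. Mitochondrially encoded mRNAs took 2.98% to 4.82% of input counts and 0.341% to 0.587% of footprint counts.

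The input RNA of Tnf stood at 156 counts in untreated cells. It stood at 805 counts after 15 min, 5759 after 30 min, 10018 after 45 min, 4036 after 60 min, 3989 after 75 min, 5483 after 90 min and 4541 after 16 h. The level was lowest in untreated cells and highest at 45 min, dipped at 60 and 75 min and was in between at 90 min and 16 h. Because these are bulk lysates, more RNA per cell and more cells expressing the gene cannot be told apart.

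The footprints of Tnf spanned a wider range than its input. They numbered 47 in untreated cells, 595 after 15 min, 8715 after 30 min, 12415 after 45 min, 2615 after 60 min, 3864 after 75 min, 5496 after 90 min and 4039 after 16 h. The 45 min library was again the highest and the untreated library the lowest. Footprints were lower at 60 min than at 75 min, with counting intervals that did not overlap (2516 to 2717 against 3743 to 3988), whereas the input intervals of these time points overlapped (3912 to 4163 against 3866 to 4115).

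As a share of all footprints, Tnf went from 0.000701% in untreated cells (exact binomial interval 0.000515% to 0.000932%) to 0.00888% at 15 min, 0.130% at 30 min and 0.185% at 45 min (0.182% to 0.189%). The share was 0.0390% at 60 min, 0.0577% at 75 min, 0.0820% at 90 min and 0.0603% at 16 h. In input RNA the share was 0.00233% in untreated cells, 0.149% at 45 min (0.147% to 0.152%) and 0.0678% at 16 h. Tnf thus took a smaller share of footprints than of input in untreated cells and at 15 min, a larger one at 30 and 45 min, and again a smaller one at 60 min and 16 h. At 90 min the shares were 0.0820% of footprints and 0.0818% of input, within counting error of each other.

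**Figure D1:**
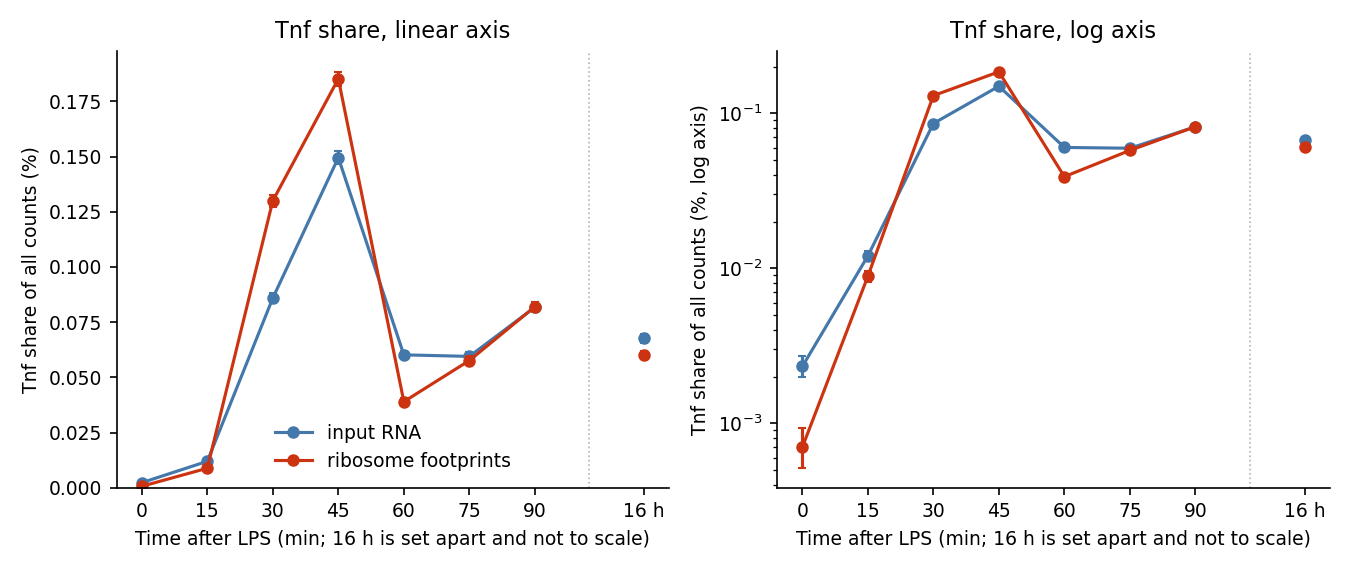
Share of Tnf in all counts of each library (percent, left on a linear and right on a log axis) against time after LPS, for input RNA (blue) and ribosome footprints (red), with exact binomial 95% intervals for counting error and 1 library per point. Both maxima are at 45 min, where the footprint share was 0.185% and the input share 0.149%; in untreated cells the footprint point lies below the input point.

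Ranked by footprint count among all 13832 genes, Tnf stood at 8080 in untreated cells, 2299 at 15 min, 91 at 30 min, 53 at 45 min, 453 at 60 min, 295 at 75 min, 192 at 90 min and 239 at 16 h. Its neighbours in that order at 45 min were housekeeping genes, Atp5a1 (a subunit of ATP synthase, 12495 counts) above it and Set (a histone chaperone, 12273 counts) below it. Per kilobase of coding length, over the 12917 genes with an annotated coding length, it ranked 6393 in untreated cells and 61 at 45 min. There it had 17610 footprint counts per kilobase, between Rpl23a, a ribosomal protein gene, at 17692 and S100a10, a calcium-binding protein gene, at 17570.

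After scaling with TMM factors (edgeR's trimmed mean of M-values), input RNA stood at 5.14 times the untreated level at 15 min, 36.8 times at 30 min and 66.0 times at 45 min (56.3 to 77.8). It stood at 27.3 times at 60 min, 27.6 times at 75 min, 38.6 times at 90 min and 30.6 times at 16 h. Footprints stood at 13.1 times at 15 min (9.75 to 18.1), 202.5 times at 30 min (152.1 to 275.7) and 291.5 times at 45 min (219.1 to 397.0). They stood at 64.1, 95.9 and 142.1 times at 60, 75 and 90 min, and at 92.0 times at 16 h. The untreated count, 47 for footprints and 156 for input, limits the precision of these ratios.

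The footprint ratio of Tnf was the highest of all 9458 tested genes with at least 10 untreated footprints at 15 min and at 30 min. At 45 min it was second to Nfkbiz, which encodes a nuclear IκB protein. At 60, 75 and 90 min it ranked 4, and at 16 h it ranked 9. In input RNA, over 9473 genes, it ranked between 3 and 9 over 15 to 90 min and 25 at 16 h.

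The steps between neighbouring time points were largest early. Input stood 2.36 higher on the log2 scale at 15 min than in untreated cells and 2.84 higher at 30 min than at 15 min, and the corresponding footprint steps were 3.72 and 3.95. From 30 to 45 min the input step was 0.84 and the footprint step 0.53. Between 45 and 60 min footprints were 4.55-fold lower and input 2.41-fold lower. Of 2654 other genes with a mean of at least 500 footprint counts, none was lower by as much from 45 to 60 min, and 2 moved by as much in either direction. In input, 2 of 3071 such genes were lower by as much as Tnf. From 60 to 75 min input was level (1.01-fold, 0.964 to 1.05) while the log2 step of footprints was 0.58 (1.42-fold to 1.57-fold higher). The minimum of 500 was chosen after the values had been seen.

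The timing of RNA against footprints was read from the time at which each reached the level midway between its untreated and highest value, by straight lines between time points. Input reached it at 27.97 min (27.26 to 28.69 from counting error) and footprints at 25.41 min (24.95 to 25.88), which was earlier. Libraries were taken 15 min apart, and with lines drawn on the log2 scale the times were 29.05 and 28.13 min, 0.929 min apart. The order of the times was the same under every interpolation tried, and both maxima fell in the same 45 min lysate. The difference is far shorter than the sampling interval and has no replicate check.

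Ribosome density of Tnf, the TMM-scaled ratio of footprints to input in 1 lysate, was 0.330 in untreated cells (0.238 to 0.457). It was 0.843 at 15 min, 1.82 at 30 min, 1.46 at 45 min, 0.773 at 60 min, 1.15 at 75 min, 1.21 at 90 min and 0.992 at 16 h. Density was highest at 30 min, 1 time point before the maxima of RNA and footprints, and the untreated value was the lowest of the 8. The interval of the 30 min value (1.757 to 1.878) did not overlap that of the 45 min value (1.419 to 1.496), nor did that of the 60 min value (0.736 to 0.812) overlap those of the values on either side of it.

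Relative to untreated cells, density was 2.56 times as high at 15 min (1.81 to 3.60), 5.51 times at 30 min (3.97 to 7.64), 4.42 times at 45 min (3.19 to 6.13), 2.34 times at 60 min (1.69 to 3.26) and 3.01 times at 16 h (2.16 to 4.18). These ratios were ranked from the highest over tested genes with at least 10 counts in each untreated and treated library compared, in both materials. Tnf stood first of 9346 genes at 30 min, second of 9322 at 45 min, 52 of 9248 at 60 min and 25 of 9277 at 16 h. Scaled to total counts, in place of TMM, the ratio at 30 min was 5.02 and at 60 min 2.15, while the median gene moved by -0.121 and -0.128 on the log2 scale.

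**Figure D2:**
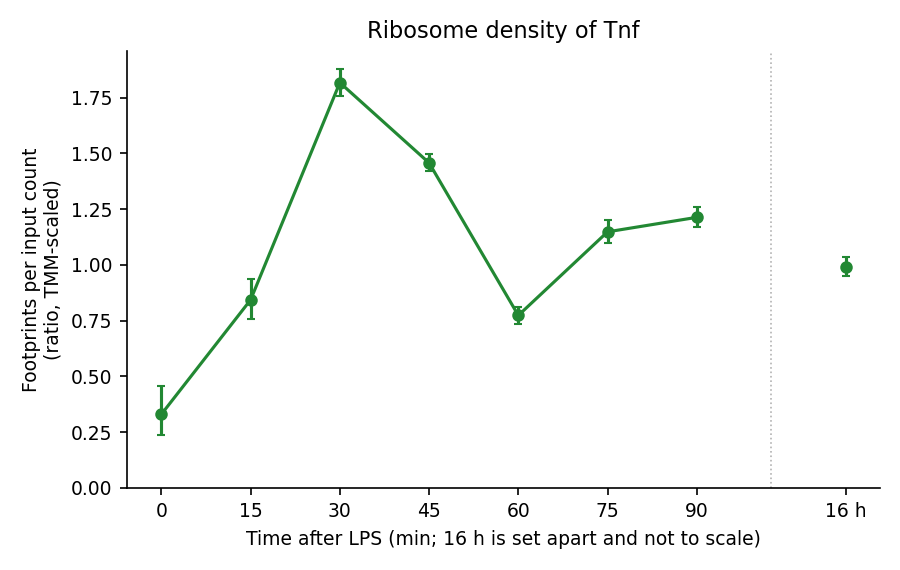
Ribosome density of Tnf, as TMM-scaled footprints per input count (linear axis from 0), against time after LPS, with 95% intervals for counting error and 1 pair of libraries per point. Density was 0.330 in untreated cells, 1.82 at 30 min and 0.773 at 60 min.

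Since no group had a replicate, the error in tests of these changes was how far libraries lay from a smooth curve. In edgeR's quasi-likelihood test with robust estimation of the spread and Benjamini-Hochberg adjustment over 9529 genes, the input of Tnf at 16 h rose, by 4.65 ± 1.36 (SE) on the log2 scale from the fitted untreated value, with an adjusted p of 0.046. At that threshold of 0.05, 55.3% of all tested genes were called for input at 16 h. The change of input over 0 to 90 min was 5.61 ± 1.45, the largest excursion of a fitted curve with linear and quadratic terms in minutes, with an adjusted p of 0.11, in a test that called 27.1% of genes. For footprints the change over 0 to 90 min was 7.30 ± 2.57 with an adjusted p of 0.24 (21.8% of genes called), and that at 16 h was 5.49 ± 2.29 with an adjusted p of 0.12 (50.6% called). The fitted curves had their largest excursion at 60 min, whereas the counts were highest at 45 min and lower at 60 min.

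Whether Tnf passed depended on how the spread was estimated. Without the robust step, edgeR gave the same sizes and adjusted p-values of 0.0028 for input and 0.017 for footprints over 0 to 90 min, and of 0.00074 and 0.0063 at 16 h, all past the threshold. DESeq2 gave 0.0014, 0.029, 9.7e-05 and 0.0014 in the same order. The robust step was chosen as the main setting because it gave the series-level counts of called genes, after both sets of values for Tnf had been seen. Without the untreated libraries the input change at 16 h was 3.84 with an adjusted p of 0.33, and it missed the threshold in 5 of the 7 fits that left out 1 time point.

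The density change over 0 to 90 min was 1.14 ± 0.95 with an adjusted p of 0.89 (edgeR, 1.28% of genes called), and that at 16 h 0.70 ± 0.95 with an adjusted p of 0.86 (0.504% called). Without the 60 min lysate the density change over 0 to 90 min was 1.83, with an adjusted p of 0.34. Averaged over all time points, density was 0.09 ± 0.21 on the log2 scale relative to the typical gene, with an adjusted p of 0.70 in a test that called 85% of genes, and it was below 0 with scaling to total counts (-0.14) and in DESeq2 (-0.02). A further model took 15 and 30 min, 45 and 60 min, and 75 and 90 min each as 1 group. Its error thus held the change within each pair, and footprints of Tnf numbered 12415 at 45 min and 2615 at 60 min. The lack of a call therefore does not show an absence of change. Contrasts between these pairs, untreated cells and 16 h called none of 21 comparisons in the same edgeR test. No unadjusted p was under 0.05 either, and these contrasts called 0% to 51.3% of genes. Without the robust step 4 of the 21 were called, and DESeq2 called 7, each a comparison with untreated cells.

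The genes whose level was most like that of Tnf over the 8 input libraries, by Pearson correlation of log2(CPM + 1) over 9528 other tested genes, were Nfkbia (r = 0.988), Ier3 (0.973), Dusp1 (0.972), Zfp36 (0.956) and Med13l (0.949). Over the 8 footprint libraries they were Ier3 (0.974), Tuba1c (0.958), Zfp36 (0.957), Dusp1 (0.947) and Nfkbia (0.943). The points of such a correlation share libraries and time, and with ranks (Spearman) in place of values none of the 5 input genes and 2 of the 5 footprint genes were among the top 5. Nfkbia encodes IκBα, which holds NF-κB in the cytoplasm, Dusp1 a phosphatase of MAP kinases, and Ier3 a product of an immediate early gene. Med13l, with 558 to 792 input counts, and Tuba1c, with 583 to 941 footprints, spanned a far smaller range and were highest at 30 min, not at 45 min.

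The 4 genes on both lists had their highest count at 45 min in both materials, as Tnf did. Footprints of Zfp36 stood at 111 counts in untreated cells, 14058 at 45 min and 3556 at 60 min. Those of Nfkbia stood at 722, 12974 and 5532 at the same times. At 60 min the footprints of Tnf stood at 21.1% of their 45 min count, against 25.3% for Zfp36, 42.6% for Nfkbia, 43.0% for Ier3 and 45.6% for Dusp1. In input the 60 min level was 40.3% of the 45 min count for Tnf, 40.9% for Zfp36, 61.1% for Nfkbia, 58.8% for Ier3 and 67.6% for Dusp1. At 90 min Tnf stood at 44.3% of its highest footprint count, whereas Zfp36 stood at 14.7%.

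In untreated cells the density of Tnf (0.330, 0.238 to 0.457) was below that of each of these 4 genes, with intervals that did not overlap. It was 1.75 for Nfkbia (1.55 to 1.97), 0.973 for Ier3 (0.711 to 1.33), 1.60 for Dusp1 (0.750 to 3.53) and 1.90 for Zfp36 (1.38 to 2.63). Density depends on how much of each transcript the input covers, so levels between genes also carry transcript length. The 60 min lysate gave a lower density than the 45 and 75 min lysates for all 4, as it did for Tnf: 2.85 for Zfp36 between 4.55 and 3.23, and 1.54 for Nfkbia between 2.17 and 1.81. The part of the 60 min libraries in the dip of Tnf was not tested.

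The other early cytokine and chemokine genes reached their maxima later. Over 0 to 90 min Tnf was highest at 45 min in both materials, while Il1b and Il1a (interleukin 1) and the chemokine genes Ccl3, Ccl4, Cxcl2 and Cxcl10 were highest at 90 min in both. Il1b footprints stood at 26 counts at 30 min and 5166 at 90 min, and Ccl3 footprints at 2041 and 20349. The footprints of Tnf already stood at 8715 counts at 30 min. Il6 (interleukin 6) reached at most 35 counts over 0 to 90 min and Il10 (interleukin 10) at most 6, too few to place a maximum. Footprints of Cxcl2 numbered 2093 at 45 min, 33.0% of its highest count of the 8 libraries, and its 3′ UTR also held a 30-base window with 5 ATTTA. Il1b, Il1a, Ccl3, Ccl4 and Cxcl2 had higher counts at 16 h than at 90 min, and Cxcl10 a lower one. Of 75 genes with footprints at least 10-fold above untreated in some library over 15 to 90 min, a minimum chosen after the values had been seen, 21 had their maximum at 45 min and 43 at 90 min. In input these numbers were 19 and 41 of 71.

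**Figure D3:**
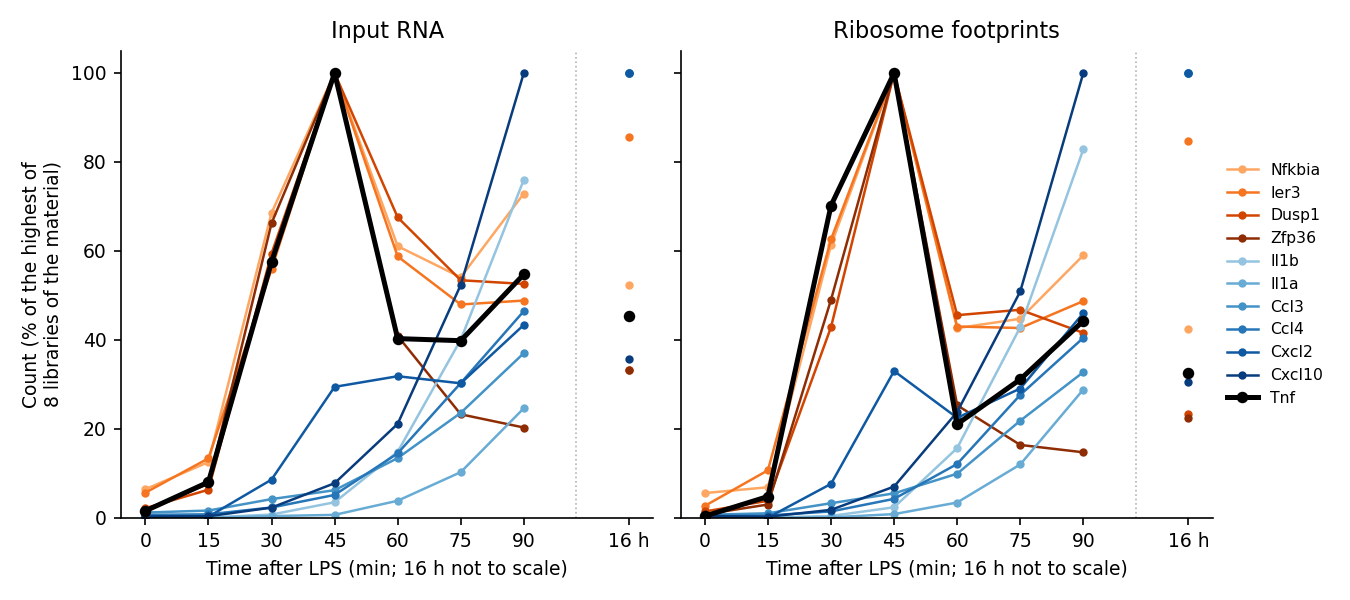
Counts of Tnf (black), the 4 genes most like it in both materials (orange) and 6 cytokine and chemokine genes (blue), as a percentage of each gene's highest count over the 8 libraries of input RNA (left) or footprints (right), against time after LPS, with 1 library per point. Tnf and the orange genes are at 100% at 45 min; Il1b footprints are at 2.37% at that time.

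The machinery that matures and sheds TNF was followed in a list of 9 genes, of which 8 were in the table and 7 were tested. Adam17, the sheddase itself, had 1246 input counts in untreated cells, 1719 at 45 min, 3040 at 90 min and 1984 at 16 h. Its input rose over 0 to 90 min by 1.65 ± 0.16 (log2 ± SE, edgeR adjusted p = 0.00082) and its footprints by 1.34 ± 0.25 (adjusted p = 0.022), and the footprint call was lost without the 15 min (adjusted p = 0.072) or the 30 min libraries (0.08). Among the 8 input libraries Adam17 was thus highest at 90 min and Tnf at 45 min. No library was taken between 90 min and 16 h, so a later maximum of Adam17 could have been missed. Adam17 footprints numbered 951 untreated and were below that at 15, 30 and 45 min (786, 695 and 772). They numbered 1269 at 60 min and 1589 at 90 min. Furin, the convertase that activates ADAM17, rose over 0 to 90 min by 1.82 ± 0.18 in input and 1.44 ± 0.14 in footprints. Before scaling, Furin footprints too were below the untreated count of 140 at 15, 30, 45 and 60 min (112, 106, 122 and 132). They numbered 294 at 90 min, and no counting interval was computed for them. At 16 h Furin rose by 3.58 ± 0.20 in input (257 counts untreated, 3144 at 16 h) and by 3.95 ± 0.14 in footprints.

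Rhbdf2 encodes iRhom2, which carries ADAM17 to the surface. Its footprints numbered 97 untreated, 172 at 90 min and 666 at 16 h, and rose at 16 h by 2.87 ± 0.17 (adjusted p = 8e-10). Sppl2a and Sppl2b encode intramembrane proteases that cut the stub TNF leaves behind. Sppl2a rose at 16 h by 1.20 ± 0.08 in input, and Sppl2b fell by 1.28 ± 0.20. Over 0 to 90 min 3 of the 7 (Adam17, Furin and Rhbdf2) were called higher in each material, where 15.2% of all genes were in input and 12.7% in footprints. None was called lower, where 11.9% and 9.13% of all genes were. At 16 h input was called higher for 4 and lower for 1, against 28.3% and 27% of all genes. Footprints were called higher for 3 and lower for 1, against 26% and 24.6%. The list's median change at 16 h was 0.946 in input and 0.771 in footprints, beside 0.00678 and 0.00399 for all tested genes. It was 0.225 in input over 0 to 90 min, beside -0.0386, and -0.0906 in footprints, beside -0.0684.

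Regulators of the decay and translation of TNF mRNA made a list of 31 genes, of which 30 were tested. Zfp36 encodes tristetraprolin, which binds the element shown above. Its input stood at 64 counts untreated, 3636 at 45 min and 738 at 90 min, and its change over 0 to 90 min was 5.20 ± 1.36 with an adjusted p of 0.092, which was 0.0018 without the robust step. Zc3h12a, which encodes the endonuclease regnase-1, rose in footprints by 6.57 ± 0.25 (adjusted p = 5.2e-11), from 10 counts untreated to 76 at 30 min, 236 at 45 min and 557 at 75 min. Its input rose by 4.41 ± 0.25 (adjusted p = 1.8e-06), from 34 counts to 553 at 90 min. Footprints of Zc3h12a were thus highest 30 min after those of Tnf. The density of Zc3h12a rose by 2.42 ± 0.47 (adjusted p = 0.025), and lost that call in 8 of 17 alternatives, among them scaling to total counts (0.07) and the fit without the untreated libraries (0.52).

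Rc3h1, which encodes the RNA-binding protein roquin-1, rose over 0 to 90 min by 1.32 ± 0.10 in input and 1.59 ± 0.14 in footprints. Its paralogue Rc3h2 rose in input by 0.79 ± 0.08 (adjusted p = 3.6e-05). Footprints of Rc3h2 numbered 123 untreated and 71 to 129 over 15 to 90 min. Their fitted change over 0 to 90 min (0.44) was called higher. That change had the other sign in 7 of 16 alternatives, and the call was lost in 4. Zfp36l2, a paralogue of Zfp36, fell by 2.07 ± 0.18 in input and 2.15 ± 0.31 in footprints. Its input stood at 370 counts untreated, 494 at 30 min and 105 at 90 min. With a linear time term alone its adjusted p-values were 0.052 in input and 0.13 in footprints. Elavl1 encodes HuR, which binds and stabilises AU-rich mRNAs, and had 853 to 1109 input counts over 0 to 90 min. Its input rose by 0.38 ± 0.09 (adjusted p = 0.013), a call lost without the 90 min libraries (0.27) and with scaling to total counts (0.093). Over 0 to 90 min the input of 7 of the 30 tested genes was called higher and of 3 lower, beside 15.2% and 11.9% of all genes. Footprints of 7 were called higher and of 5 lower, beside 12.7% and 9.13%, and with scaling to total counts 5 and 8. At 16 h the input of 7 was called higher and of 8 lower, beside 28.3% and 27% of all genes, and with scaling to total counts 4 and 9. Footprints of 5 were called higher and of 11 lower at 16 h, beside 26% and 24.6%. The list's median change was 0.305 in input and 0.221 in footprints over 0 to 90 min, beside -0.0386 and -0.0684 for all genes, and 0.0665 and -0.0119 at 16 h, beside 0.00678 and 0.00399.

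Receptors and the proteins next to them made a list of 27 genes, all tested. Tnfrsf1b, which encodes TNFR2, had 80 to 135 input counts over 0 to 90 min and 4085 at 16 h. Its footprints numbered 63 to 107 over 0 to 90 min and 3634 at 16 h. At 16 h input rose by 5.42 ± 0.14 (adjusted p = 2.7e-12), and footprints rose by 5.26 ± 0.15 (adjusted p = 1.3e-13). Tnfrsf1a, which encodes TNFR1, had 264 input counts untreated and 352 at 16 h, and its footprints numbered 272 untreated, 130 at 90 min and 362 at 16 h. Its footprints fell over 0 to 90 min by 0.75 ± 0.14 (adjusted p = 0.0023), and at 16 h they rose by 0.55 ± 0.15 (adjusted p = 0.0055). Without the untreated libraries these adjusted p-values were 0.075 and 0.07, and DESeq2 gave 0.054 at 16 h.

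Tnip1, which encodes a ubiquitin-binding inhibitor of NF-κB signalling, rose over 0 to 90 min by 2.08 ± 0.10 in input and 2.12 ± 0.19 in footprints. Mlkl, the effector of necroptosis, rose at 16 h by 2.23 ± 0.13 in input and 2.27 ± 0.15 in footprints. Casp8, the protease at the head of death-receptor apoptosis, rose by 1.10 ± 0.10 and 1.06 ± 0.11. At 16 h the input of 14 of the 27 was called higher and of 2 lower, beside 28.3% and 27% of all genes, or 10 and 5 scaled to total counts. Footprints of 13 were called higher and of 1 lower at 16 h, beside 26% and 24.6%. Over 0 to 90 min input calls were 10 higher and 3 lower, beside 15.2% and 11.9%, or 4 and 7 scaled to total counts. Footprint calls were 4 higher and 2 lower, beside 12.7% and 9.13%, or 3 and 6 scaled to total counts. Over 0 to 90 min the input call of Casp8 (0.19) was lost in 13 of 16 alternatives and changed sign in 3. Tnfrsf1b was called higher in input (0.41), a call lost in 4 of 16 alternatives, with a change of sign in 4. It was called lower in footprints (-0.37), a call lost in 10 of 16, with a change of sign in 2. The list's median change at 16 h was 0.434 in input and 0.542 in footprints, and over 0 to 90 min 0.189 and 0.148.

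Of 17 genes for other ligands of the TNF superfamily, 11 were in the table and 3 passed the count filter. Tnfsf9, which encodes 4-1BB ligand, had 366 footprints untreated, 1538 at 45 min, 1381 at 90 min and 449 at 16 h. Its input rose over 0 to 90 min by 2.05 ± 0.12 (adjusted p = 5.8e-07), with a change at 16 h of 0.16 ± 0.16 (adjusted p = 0.43). Ltb, which encodes lymphotoxin β and lies beside Tnf, had 142 to 215 input counts over 0 to 90 min and 94 at 16 h. Its input change over 0 to 90 min was 0.65 ± 0.15 (adjusted p = 0.01), which was 0.074 in DESeq2. Lta, the lymphotoxin α gene on the other side of Tnf, had at most 15 input counts and 24 footprints, both at 16 h, and 1 footprint at 45 min, so it was not tested. Tnfsf13b, which encodes BAFF, had 7 to 24 input counts and passed no test. Of the 3, Tnfsf9 and Ltb were called higher over 0 to 90 min in each material, beside 15.2% of all genes in input and 12.7% in footprints. Before scaling, Ltb footprints numbered 143 untreated and 95 to 138 over 15 to 90 min, so no treated count in that window exceeded the untreated one. The fitted footprint change of Ltb (0.40 ± 0.18) changed sign in 5 of 16 alternatives, among them scaling to total counts. The call was lost in 8 of the 16. Ltb was called lower in input at 16 h, beside 27% of all genes, and missed the threshold in DESeq2 (adjusted p = 0.13) and without the untreated libraries (0.31).

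Of 10 genes next to Tnf on its chromosome, 9 were in the table and 6 were tested. Lst1, a leukocyte membrane protein gene, rose at 16 h by 0.87 ± 0.13 in input and 1.29 ± 0.14 in footprints, with 255 footprints untreated and 574 at 16 h. Nfkbil1 rose in footprints over 0 to 90 min by 1.15 ± 0.17 (151 counts untreated, 238 at 90 min, adjusted p = 0.00037). Ddx39b, an RNA helicase gene, fell in input at 16 h by 0.38 ± 0.08. Bag6, a chaperone gene, had 1027 input counts untreated and 1350 at 90 min, a change of 0.42 ± 0.08 (adjusted p = 0.0057) that had an adjusted p of 0.071 without the untreated libraries. Over 0 to 90 min input was called higher for 2 of the 6 (Bag6 and Ltb), beside 15.2% of all genes. Footprints were called higher for 3 (Nfkbil1, Prrc2a and Ltb), beside 12.7%, and for 1 with scaling to total counts. The footprint call of Ltb has the limits given above. None of the 6 was called lower over 0 to 90 min, beside 11.9% of all genes in input and 9.13% in footprints. At 16 h input was called higher for 1 and lower for 2, beside 28.3% and 27%. Footprints at 16 h were called higher for 1 and lower for none, beside 26% and 24.6%.

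**Figure D4:**
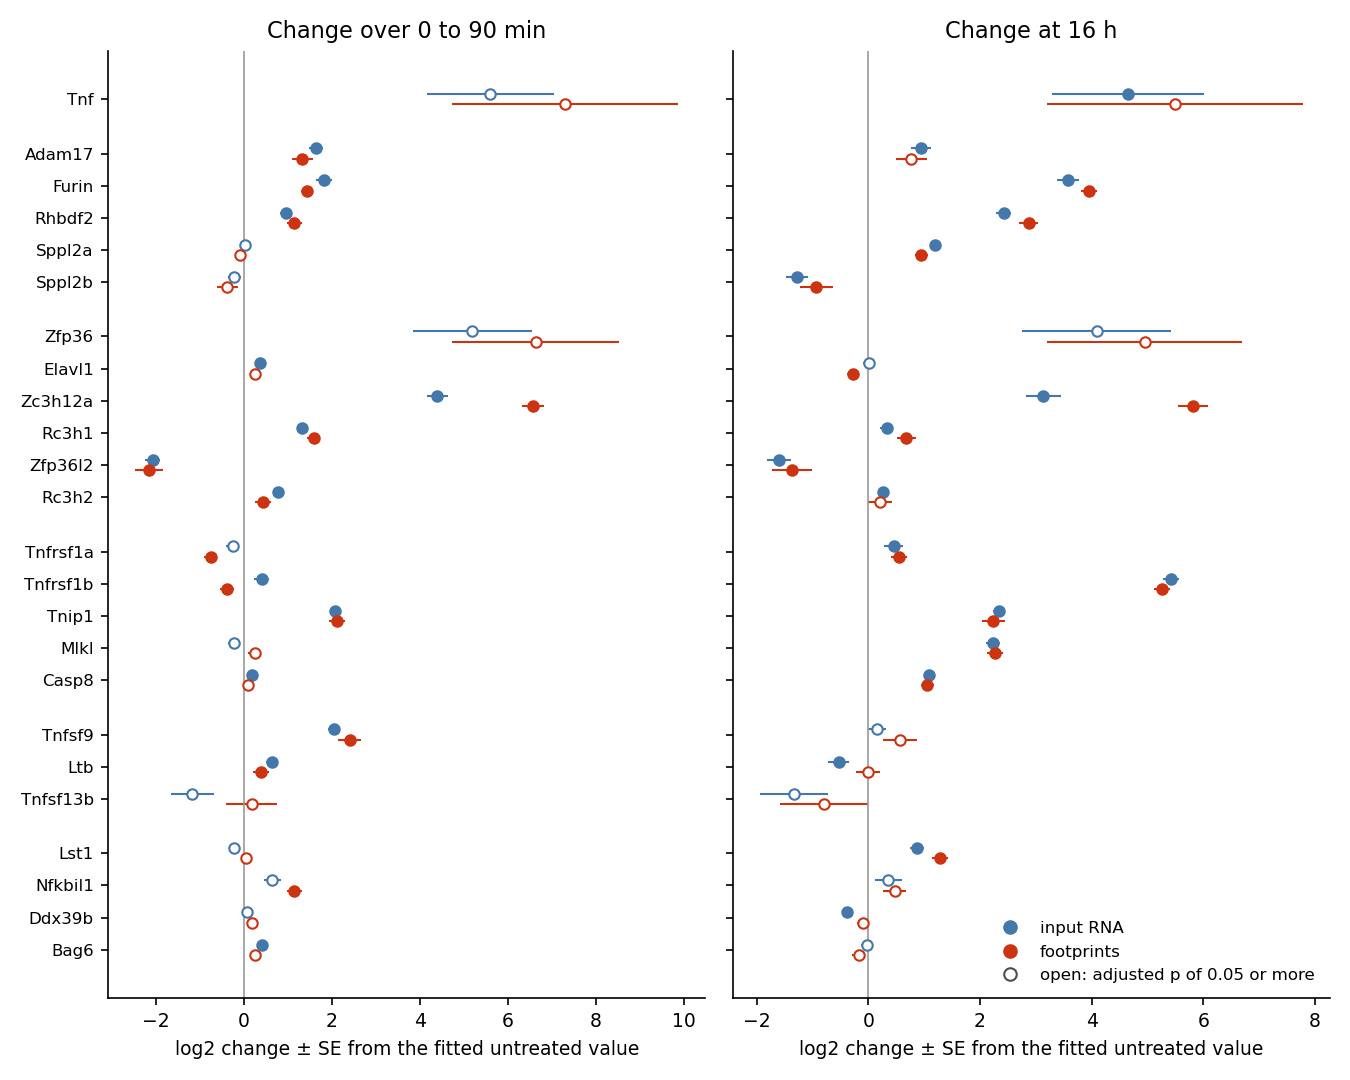
Fitted log2 changes ± SE from the untreated value over 0 to 90 min (left) and at 16 h (right) in input RNA (blue) and footprints (red) for Tnf, 5 shedding genes, 6 decay regulators, 5 receptor and signalling genes, 3 other ligands and 4 chromosomal neighbours, from top to bottom; filled points have an adjusted p under 0.05 in edgeR. Tnf has open points over 0 to 90 min with SEs of 1.45 and 2.57, and Tnfrsf1b has filled points at 5.42 and 5.26 at 16 h.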

How the data were processed

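Input RNA and ribosome footprints were sequenced at 8 time points, and both libraries of a time point came from 1 lysate, per the labels' protocols. Footprints were made with RNase I and taken from monosomal fractions, and input was fragmented by alkaline hydrolysis, per the same protocols. The authors deposited whole-number read counts for each gene, which were used here. They also deposited a normalised signal, the counts divided by a size factor per the file headers, which served only as a check. The submitters' processing notes list Bowtie 0.12.8, DESeq2 1.18.1 and the mm10 build. Not given in the sources used here is how reads were counted, or how strand and multiple matches were handled. Totals from 6702930 to 6702932 look like reads sampled to 1 number, a step that no source describes.

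A gene was tested if 10 counts were reached in 4 or more of the 8 libraries of each material, which left 9529. edgeR 4.0.16 (R 4.3.3, TMM, quasi-likelihood F-test, Benjamini-Hochberg, threshold 0.05) was the main tool and DESeq2 1.42.0 an alternative. The procedure was run on simulated counts whose changes followed a quadratic curve up to 90 min and stayed at that level at 16 h. That run does not cover a course such as that of Tnf, which was highest at 45 min. The change over 0 to 90 min tested linear and quadratic terms in minutes together (4 residual degrees of freedom). The 16 h library had a term of its own, with the spread of the rest assumed for it. Density was fitted to both materials at once, blocked by time point; the mean density model left 7 residual degrees of freedom. Robust estimation of the spread, not named in the written design, was settled on after both sets of Tnf values had been seen. Members and gene lists were chosen with earlier results of these data known. Genes named are Tnf, up to 4 per list with the smallest p, the pathway's head genes, the 5 most like Tnf per material, the early cytokines and the genes ranked beside Tnf. Shares have exact binomial (Clopper-Pearson) intervals. No use of molecular identifiers is stated, so intervals cover counting error only.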

Additional observations from a re-analysis of the deposited data

How the results depend on the processing

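Sizes below are log2 changes of Tnf, with edgeR adjusted p-values unless DESeq2 is named. Input over 0 to 90 min passed the threshold without the robust step (5.61, adjusted p = 0.0028; an alternative chosen after seeing the data) and in DESeq2 (5.80, 0.0014), as did footprints over 0 to 90 min (7.30, 0.017, and 7.94, 0.029). Footprints at 16 h passed without the robust step (5.49, 0.0063), in DESeq2 (5.98, 0.0014) and with a cubic curve (7.88, 0.036). Input at 16 h missed the threshold with no filter on low counts (4.61, 0.054) and with a linear time term (1.87, 0.47). Input and footprints at 45 and 60 min against untreated passed in DESeq2 (5.55, 0.0041, and 7.48, 0.0011). The cause of these moves was not tested. The mean density level changed sign with scaling to total counts (-0.136) and in DESeq2 (-0.0185), and density at 75 and 90 min against 45 and 60 min without the time-point block (-0.0831).

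Leaving out 1 time point at a time gave input changes of 3.84 to 5.17 at 16 h, with adjusted p-values of 0.33, 0.13, 0.057, 0.09 and 0.059 without the 0, 15, 30, 45 and 75 min libraries (3.84, 4.33, 4.82, 4.47 and 4.82), and of 4.63 to 6.02 over 0 to 90 min. For footprints the ranges were 3.54 to 6.39 and 4.90 to 7.99. Without the 0 min libraries these changes, and those of density below, were measured from a curve extended back to 0 min. Density ranged from 0.178 to 1.83 over 0 to 90 min and from -0.270, without the 0 min libraries, to 1.09 at 16 h, and the mean density level from -0.0288, without the 30 min libraries, to 0.230. At 45 and 60 min against untreated the ranges were 4.77 to 6.06 in input, 5.99 to 8.18 in footprints and 1.23 to 2.14 in density. At 75 and 90 min against 45 and 60 min they were -1.03 to 0.263 in input and -1.30 to 0.884 in footprints (the highest without the 45 min libraries), and -0.303 (without the 60 min libraries) to 0.611 in density.

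Counted over any of 4 tests, the ligand list had 5 called genes of 7 tested with no filter, against 2 of 3 in the main fit. It had 3 of 3 with scaling to total counts and 1 of 3 in DESeq2. In the main fit each of these tests alone called 21.8% to 55.3% of all tested genes. The share of all genes called in any of them was not computed, so these counts show only the move between settings. The 45 min share was 0.156% of input without mitochondrially encoded mRNAs and 0.162% without the 10 most abundant genes, and 0.202% of footprints without those 10. Interpolation on the log2 scale moved the midway times to 29.05 and 28.13 min. Spearman correlation shared 0 of 5 like genes in input and 2 of 5 in footprints. Input and footprints of a lysate were paired in the density model, with the time point as the block; without that block the density change over 0 to 90 min was 1.56 (adjusted p = 0.99). The untreated counts, 47 footprints and 156 in input, limit the ratios against untreated cells.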

Other observations

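The 3′ UTRs of the genes set beside Tnf differed in their number of ATTTA pentamers in the GENCODE M21 annotation. Against 8 in the 764 bases of Tnf, that of Cxcl2 held 11 in 1494 bases, Il6 10 in 1668 bases and Il10 6 in 706 bases. Ier3 and Ccl3 held 5 each, Dusp1 and Il1b 4 each, Zfp36, Il1a and Cxcl10 3 each, and Nfkbia and Ccl4 2 each. The 4 genes most like Tnf in both materials, each highest at 45 min, thus held 2 to 5, a range that the later cytokine genes overlapped. The most in any 30-base window was 5 in Tnf and Cxcl2, 3 in Il1b and at most 2 in the other genes named here.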
